A study of Oryctolagus cuniculus with 35 samples.

Results

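Infused mesenchymal stromal cells (MSC) were compared with saline (NaCl) in the lungs of New Zealand rabbits with pneumonia, to ask which lung genes differ when the cells are given as the only treatment. All 14 libraries compared came from lungs infected with pneumococcus and exposed to adverse mechanical ventilation. The treatment followed 4 h after inoculation and was either saline or 3000000 MSC from human umbilical cord per kg into a vein. Lung pieces were collected at autopsy 24 h after inoculation, or sooner where the animal died, and the labels do not say which animals died. The members were the 7 MSC and the 7 NaCl libraries, out of 35 libraries in the series, and 9446 of 23669 genes, those with a value of at least 10 in 7 or more of the 14 libraries. The other libraries came from healthy rabbits given saline and from infected, ventilated rabbits given the cephalosporin ceftaroline with or without MSC, 7 in each group. The labels name rabbits but no animal for each library, so p-values measure the spread between these libraries.

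MSC are cells of connective tissue origin that can be grown from umbilical cord. They secrete soluble mediators and vesicles, and they are studied in lung injury because they can lower the release of inflammatory cytokines and shift macrophages toward clearing dead cells and bacteria. In bacterial pneumonia, sensing of the bacterium by macrophages and epithelium starts signalling by the transcription factor NF-kB, which induces cytokines and chemokines. These draw in neutrophils, whose granules hold antimicrobial peptides. Here the cells were human and the lung was rabbit. Whether any of the counted reads came from the infused cells was not tested.

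Values are normalized reads, which are reads per gene divided by a size factor of the library. The 7 NaCl libraries held 7611988 to 14948358 reads and the 7 MSC libraries 9642813 to 11987726. As lung markers, SFTPB (surfactant protein B), AGER (a type I cell receptor) and VWF (an endothelial clotting factor) had reads in every library, while SFTPC, SFTPD, SCGB1A1 and CLDN5 were listed at 0 in all 14. A 2-letter title ending, PG, marked NaCl replicates 5, 6 and 7 and MSC replicates 6 and 7, and these titles also began with other letters. The meaning of the ending is not given in the sources used here. In a principal component analysis of log2(value + 1), the first component held 31.7% of the variance and separated the 5 libraries with the ending from the 9 without it in both groups. MSC replicate 6 stood furthest from its group, with a quality weight of 0.416 where the average library has about 1, followed by NaCl replicate 1 (0.584) and MSC replicate 7 (0.620).

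**Figure D1:**
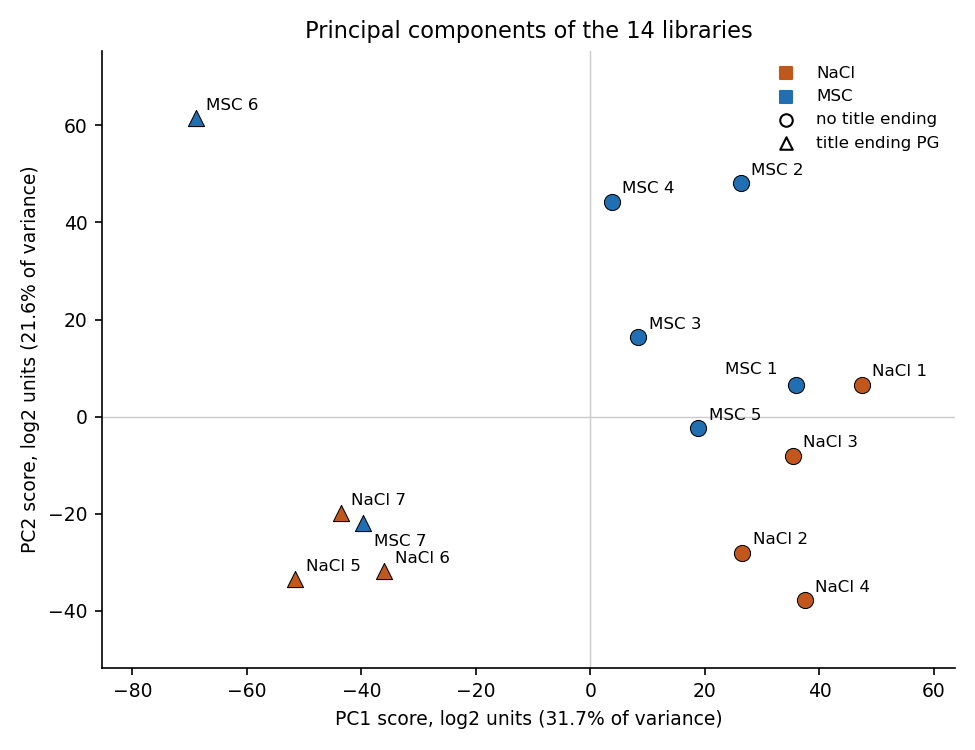
Principal component scores of the 14 libraries, with PC1 on the x axis (31.7% of the variance) and PC2 on the y axis (21.6%), each point 1 library, coloured by treatment and shaped by title ending. The 5 libraries with the ending PG lie left of 0 on PC1 and the 9 others right of it, while the MSC and NaCl libraries overlap on both axes.

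No gene passed the test for a difference between MSC and NaCl. The test was limma on log2(value + 1), two-sided, with Benjamini-Hochberg adjusted p-values over the 9446 genes, and 0.0% were called at an adjusted p under 0.05, with a lowest adjusted p of 0.159. edgeR on the recovered reads also called 0. An unadjusted limma p under 0.05 was reached by 905 genes with a higher mean with MSC (9.58% of those tested) and 767 with a lower one (8.12%), and by 1731 genes in edgeR. Mean log2 values were higher with MSC for 4825 genes, or 51.1%. DESeq2 on the same reads called 191 higher (2.1% of 9079) and 144 lower (1.59%). Without the 3 libraries of lowest weight, a choice made after the data were seen and one that lowers the spread by its construction, limma called 309 genes higher (3.27%) and 344 lower (3.64%). Leaving out MSC replicates 6 and 7 and NaCl replicate 1 removes every MSC library with the title ending PG. NaCl replicates 5, 6 and 7, which carry it, stay in. In that fit, treatment and title ending therefore cannot be fully told apart, here and wherever it is cited below. In what follows, a log2 change (log2 fold change) is the mean log2(value + 1) of MSC minus that of NaCl, with its standard error (SE), adjusted p is limma's, and no gene described here passed unless another tool or set of libraries is named. Brackets after the median of a gene list give its range with 1 library left out at a time and, after the comma, its value without the 3 libraries of lowest weight.

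Some genes nevertheless separated the groups completely. In 18 genes (0.191%) every MSC library was above every NaCl library, and in 7 genes (0.0741%) every MSC library was below. These genes were chosen for that pattern, so their values are a description. With values expressed as RPM, a gene's reads scaled to an equal total of recovered reads in every library, which moved the median of all genes up by 0.31 on the log2 scale, 113 genes lay above and 2 below. That scaling moved the median log2 change above 0 for the gene lists, described below, of endothelial, barrier, B cell, T and NK cell, red cell, citric acid cycle, hypoxia and growth factor genes, which are negative here, and for no other list. It brought some other negative medians close to 0: -0.017 in cytokine receptor, -0.061 in antioxidant, -0.088 in heat shock and -0.098 in lipid mediator and clearance genes. Separation comes more easily with fewer libraries, and 2 of them bore on it most: without MSC replicate 7 the number of separated genes was 134, without NaCl replicate 1 it was 106, and among the 4 NaCl and 5 MSC libraries whose titles lack the ending it was 693.

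Of the separated genes that have a symbol and average 50 or more normalized reads there were 11 higher and 4 lower ones. SPR makes tetrahydrobiopterin, the cofactor of nitric oxide synthases and aromatic amino acid hydroxylases, in its final step. Its values in NaCl replicates 1 to 7 were 219, 93.6, 158, 100.3, 173, 127 and 139.6, and in MSC replicates 1 to 7 they were 302, 338, 258, 309, 227, 418 and 312 (log2 change 1.13, SE 0.20, adjusted p = 0.159). The highest NaCl lung was NaCl replicate 1, next to the lowest MSC lung, and DESeq2 gave an adjusted p of 0.000395. SEPSECS, the enzyme that completes selenocysteine on its tRNA, ranged over 77.9 to 99.8 (median 82.3) with NaCl and 110.2 to 209.6 (median 141) with MSC (log2 change 0.79, SE 0.15, adjusted p = 0.159). GTF3C2, a subunit of the factor that recruits RNA polymerase III, ranged over 254 to 325 (median 308) with NaCl and 327 to 604 (median 526) with MSC (log2 change 0.69, SE 0.15, adjusted p = 0.159). For SEPSECS the NaCl lungs lay within a narrow band and the MSC lungs spread above it, whereas GTF3C2 had 2 MSC lungs, replicates 5 and 7, nearer to the NaCl values than the rest.

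The other higher genes have various roles. ERAL1, which assembles the small ribosomal subunit of mitochondria, ranged over 109 to 154 (median 131) with NaCl and 161 to 288 (median 174) with MSC (log2 change 0.60, SE 0.16, adjusted p = 0.159). SLC25A43, of the mitochondrial carrier family, ranged over 70.7 to 97.5 (median 95.0) with NaCl and 97.9 to 352 (median 121) with MSC (log2 change 0.75, SE 0.26, adjusted p = 0.199). MSC replicates 4 and 6 set the upper end of SLC25A43, and its other 5 MSC lungs stood between 97.9 and 157. The helicase genes DHX35 and DHX29 (an aid of translation initiation) had log2 changes of 0.50 (SE 0.13) and 0.32 (SE 0.11), and HELQ, a helicase of DNA repair, 0.31 (SE 0.12). GLOD4, a glyoxalase domain protein, stood at 0.44 (SE 0.12), EXOC6B, of the exocyst that tethers vesicles, at 0.28 (SE 0.10), and GOSR1, a Golgi SNARE, at 0.18 (SE 0.090). The last of these had the smallest difference of the 15, and its lungs nearly touched: the highest NaCl value was 811 and the lowest MSC value 826.

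The 4 lower separated genes were led by HDGF, a heparin-binding growth factor found mainly in the nucleus. HDGF ranged over 719 to 1517 (median 992) with NaCl and 395 to 679.7 (median 574) with MSC (log2 change -0.85, SE 0.16, adjusted p = 0.159). RAD21L1, a cohesin subunit known from meiosis, ranged over 777 to 1407 (median 1045) with NaCl and 372 to 766 (median 628) with MSC (log2 change -0.78, SE 0.17, adjusted p = 0.159). In both genes MSC replicate 6 was the lowest lung, and the other 6 MSC lungs were also below all NaCl lungs. TXNDC11, a thioredoxin domain protein of the endoplasmic reticulum, had a log2 change of -0.36 (SE 0.11). DAXX, a chaperone of histone H3.3, had one of -0.32 (SE 0.11).

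**Figure D2:**
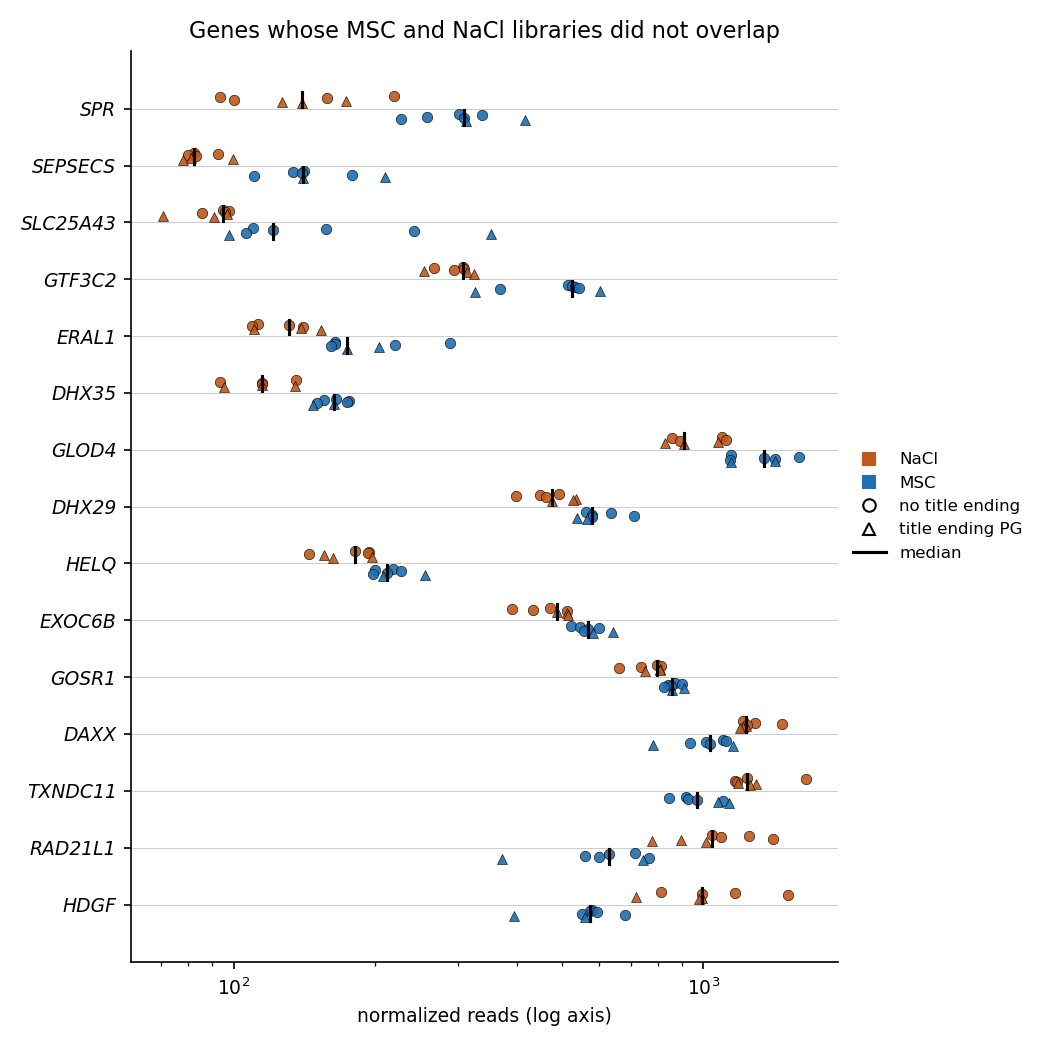
Normalized reads (x axis, log scale) of the 15 genes with a symbol and an average of 50 or more whose groups did not overlap, 1 row per gene, 1 point per library, with circles for no title ending, triangles for PG and a black bar at each group's median. The upper 11 genes have all 7 MSC points to the right of all 7 NaCl points, and the lower 4 have them to the left, with a narrow gap between the groups in every row.

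The 10 symbol-bearing genes of lowest limma p were SPR, SEPSECS, HDGF, GTF3C2, ZMYM3 and also KLHL21, IRF2BPL, LEPROT, DDX54 and NME6. In these last 5, 1 or 2 lungs prevented separation. KLHL21, a substrate adaptor of a cullin 3 ubiquitin ligase, ranged over 239 to 548 (median 365) with NaCl and 95.7 to 352 (median 126) with MSC (log2 change -1.37, SE 0.28, adjusted p = 0.159). The upper end of its MSC range was replicate 7 alone, without which KLHL21 passed at an adjusted p of 0.0335 in limma. IRF2BPL, a transcriptional coregulator, ranged over 358 to 592 (median 500.2) with NaCl and 189.7 to 467 (median 230.0) with MSC (log2 change -0.89, SE 0.19, adjusted p = 0.159), and MSC replicate 1 was the lung that overlapped. DDX54, an RNA helicase, had 6 of 7 MSC lungs below the lowest NaCl lung (log2 change -0.76, SE 0.16, adjusted p = 0.159). LEPROT, which lowers the display of growth hormone and leptin receptors and shares its start with the leptin receptor gene, had 6 of 7 MSC lungs above the highest NaCl lung (log2 change 0.96, SE 0.20, adjusted p = 0.159). NME6, of the nucleoside diphosphate kinase family, had 5 of 7 above (log2 change 1.21, SE 0.26, adjusted p = 0.159).

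Several genes of acute inflammation were among those with the lowest log2 changes, which were lower on average with MSC without passing the test. The 10 lowest log2 changes, among symbol-bearing genes averaging 50 or more with an unadjusted p under 0.01, were those of CFAP61, CAMP, CSTA, IL23A, NOCT, EDN2, PTX3, RPGRIP1, HBEGF and PTGS2. CAMP encodes the cathelicidin peptide of neutrophil granules, and its values in NaCl replicates 1 to 7 were 15560, 18530.2, 5674, 12815, 9027, 33277 and 11820. In MSC replicates 1 to 7 they were 2674, 460.1, 6368, 155, 8300.3, 169 and 6531 (log2 change -3.24, SE 0.91, adjusted p = 0.159). MSC replicates 2, 4 and 6 were under 1000, while replicates 3, 5 and 7 overlapped the lower NaCl lungs. In bulk lung, fewer cells of a type and less RNA per cell cannot be told apart.

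Of 26 neutrophil genes listed, 8 could be tested, and 7 of these 8 had a lower mean with MSC, 5 of them at an unadjusted p under 0.05 (8.12% of all genes tested were). Their median log2 change was -1.44 [-1.81 to -0.98, -0.76], against 0.012 over all genes tested. LTF, the iron-binding granule protein lactoferrin, ranged over 1338 to 12163 (median 4539) with NaCl and 82.0 to 3911 (median 1695) with MSC (log2 change -2.23, SE 0.90, adjusted p = 0.229). S100A8 and S100A9 form calprotectin, the main cytosolic protein of neutrophils. S100A8 ranged over 52880.2 to 397484 (median 264468) with NaCl and 11089.9 to 226138 (median 96965) with MSC (log2 change -1.45, SE 0.61, adjusted p = 0.245), and S100A9 averaged 440426 ± 285529 with NaCl against 159842 ± 114349 with MSC (SD, n = 7 each). CXCR1, a receptor for CXCL8, ranged over 566 to 5483 (median 2798) with NaCl and 175 to 3779.7 (median 942) with MSC (log2 change -1.38, SE 0.59, adjusted p = 0.25). For S100A8 and CXCR1 the lowest lung of all 14 was MSC replicate 6, and MSC replicate 1 stayed within the NaCl range. The defining neutrophil genes LCN2, MMP9, CSF3R, ITGAM and ITGB2 were listed at 0 in all 14 libraries. Without the 3 libraries of lowest weight limma called none of the 8.

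Among cytokines and chemokines, 16 of 24 tested genes had a lower mean with MSC and 8 a higher one, with 4 lower and 0 higher at an unadjusted p under 0.05. The median log2 change of the 24 was -0.66 [-0.89 to -0.20, 0.056], so that it was close to 0 in the last of these fits. That fit holds NaCl but no MSC libraries with the title ending. In it limma called 1 of the 24, IL6, lower (log2 change -2.71, adjusted p = 0.0422) and 0 higher. The median was -1.05 among libraries without the ending, -0.88 among those with it and -1.03 with the ending as a covariate. IL6, a cytokine of the acute phase, ranged over 1460.2 to 36341 (median 14246) with NaCl and 8.35 to 10248 (median 1835) with MSC (log2 change -3.14, SE 1.29, adjusted p = 0.234). All 7 MSC lungs were below the NaCl median, but only 2 were below the lowest NaCl lung, NaCl replicate 1, and the log2 change was -1.96 without MSC replicate 6. CXCL8, the chemokine that recruits neutrophils, ranged over 18048 to 213729 (median 21930.4) with NaCl and 322 to 34401 (median 7144) with MSC (log2 change -2.58, SE 0.94, adjusted p = 0.204; DESeq2 adjusted p = 0.0464). NaCl replicates 2 and 4 had by far the most CXCL8, and 4 MSC lungs were below all 7 NaCl lungs. IL23A, the subunit that defines interleukin 23, ranged over 620.1 to 4882 (median 1014) with NaCl and 12.9 to 2202 (median 201) with MSC (log2 change -2.61, SE 0.84, adjusted p = 0.181), and MSC replicate 5 was the one MSC lung above the NaCl median. CCL11, which attracts eosinophils, averaged 4865 ± 5428 with NaCl against 1255 ± 1504 with MSC (SD, n = 7 each; log2 change -1.85, SE 0.85).

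Other signals of the panel also had lower means with MSC. IL1B ranged over 1783 to 32880.4 (median 4745) with NaCl and 271 to 14946 (median 2754) with MSC (log2 change -1.25, SE 0.86, adjusted p = 0.47). TNF ranged over 35.9 to 2197 (median 227) with NaCl and 30.4 to 1159 (median 294) with MSC (log2 change -0.66, SE 0.95, adjusted p = 0.757). Its log2 change was 0.22 without the 3 libraries of lowest weight, a fit that holds no MSC lung with the title ending. IL10, which restrains inflammation, ranged over 11.6 to 279 (median 61.9) with NaCl and 9.11 to 150.5 (median 29.5) with MSC (log2 change -0.74, SE 0.70, adjusted p = 0.612). CSF3, the growth factor of neutrophils, ranged over 158 to 13615 (median 1568) with NaCl and 3.04 to 2721 (median 394) with MSC (log2 change -2.44, SE 1.35, adjusted p = 0.358). Without MSC replicate 6, the lowest MSC lung for each of them, the log2 changes were -0.69 for IL1B, -0.22 for TNF, -0.41 for IL10 and -1.41 for CSF3. In each of these genes the NaCl lungs with the title ending were mostly lower than the other NaCl lungs, and the MSC range overlapped both.

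PTX3, a pattern recognition molecule made by vessel and immune cells, ranged over 1455 to 13347 (median 8942) with NaCl and 157 to 5608 (median 1364) with MSC (log2 change -2.20, SE 0.74, adjusted p = 0.189). CSTA, an inhibitor of cysteine proteases in epithelium and leukocytes, ranged over 95.7 to 2301 (median 803) with NaCl and 8.35 to 375 (median 93.2) with MSC (log2 change -2.81, SE 0.86, adjusted p = 0.171; DESeq2 adjusted p = 0.028). NOCT, a circadian phosphatase, ranged over 111 to 1467 (median 599) with NaCl and 27.3 to 696 (median 89.1) with MSC (log2 change -2.24, SE 0.66, adjusted p = 0.159). In NOCT, 5 MSC lungs stood at or below 155 and MSC replicate 7 at 696, above the NaCl median. EDN2, a vasoconstrictor peptide, ranged over 25.3 to 198 (median 89.6) with NaCl and 2.95 to 89.3 (median 20.0) with MSC (log2 change -2.22, SE 0.64, adjusted p = 0.159), with 6 of 7 MSC lungs below all NaCl lungs. RPGRIP1, a protein of the photoreceptor cilium, ranged over 98.5 to 1013 (median 309) with NaCl and 9.87 to 277 (median 99.8) with MSC (log2 change -2.11, SE 0.65, adjusted p = 0.173).

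**Figure D3:**
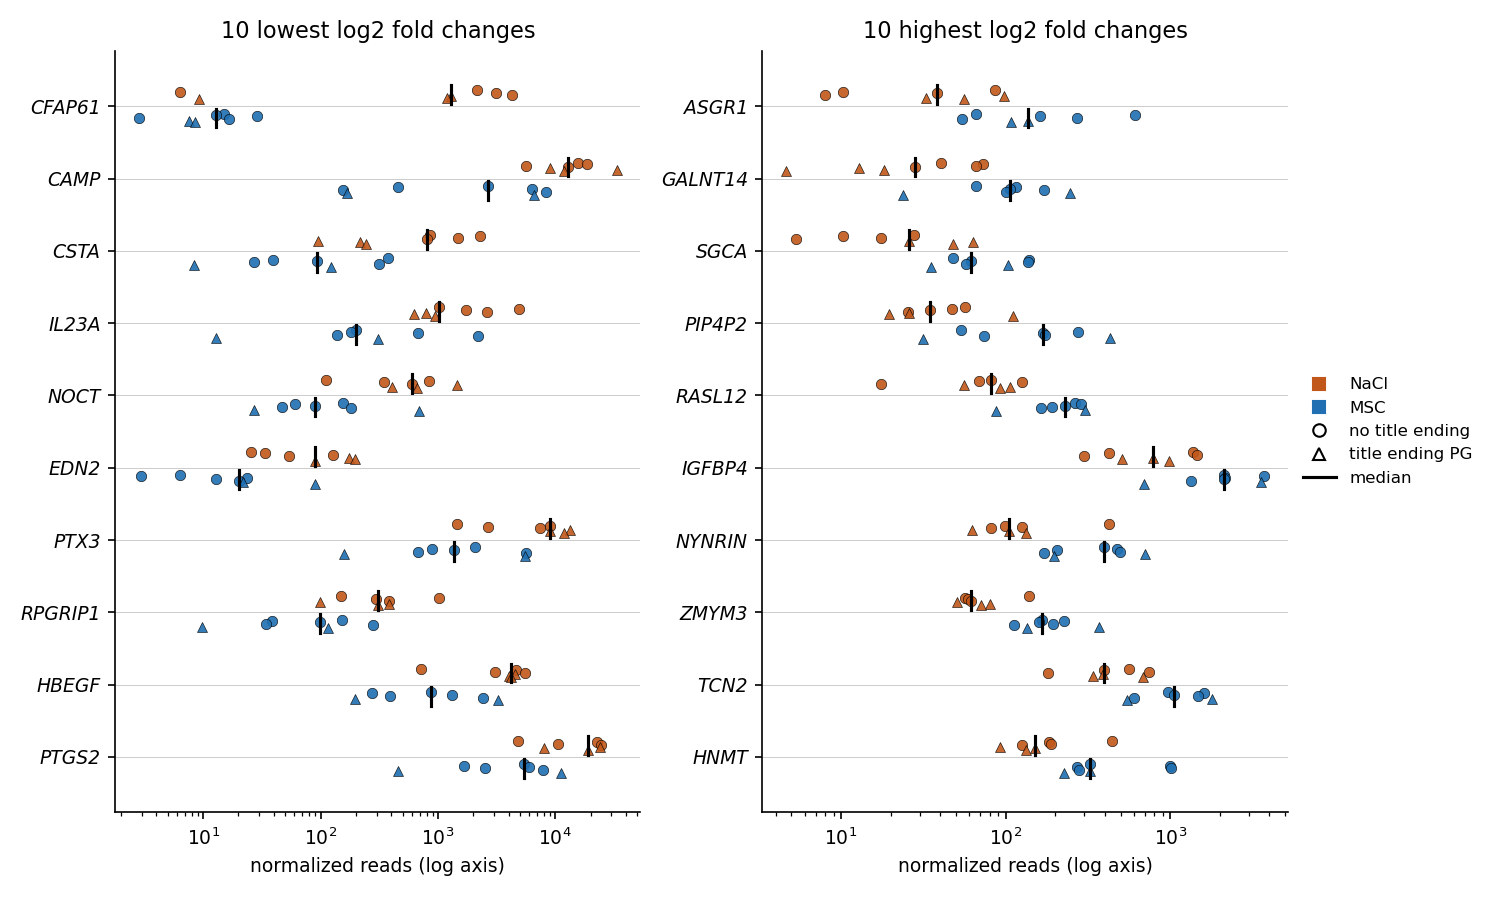
Normalized reads (x axes, log scale) of the 10 genes with the lowest (left) and the 10 with the highest (right) log2 change among symbol-bearing genes averaging 50 or more with an unadjusted p under 0.01, 1 point per library and a black bar at each group's median. MSC medians lie left of NaCl medians in the left panel and right of them in the right panel, and in every row the points of the 2 groups overlap or touch.

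Genes of NF-kB signalling were lower on average. All 14 tested genes had a lower mean with MSC, 9 of them at an unadjusted p under 0.05, with a median log2 change of -0.83 [-0.96 to -0.69, -0.70]. The list holds subunits of the factor as well as the inhibitors that it induces. Among the subunits, NFKB1 averaged 1694 ± 665 with NaCl against 894 ± 336 with MSC and NFKB2 7885 ± 4684 with NaCl against 3771 ± 1583 with MSC (SD, n = 7 each). Among the inhibitors, TNFAIP3, which removes ubiquitin chains from the pathway's kinase complexes, ranged over 236 to 1197 (median 589.8) with NaCl and 31.9 to 379.9 (median 182) with MSC (log2 change -1.98, SE 0.51, adjusted p = 0.159; DESeq2 adjusted p = 0.00998). In TNFAIP3, 5 of 7 MSC lungs were below every NaCl lung, and MSC replicate 1 equalled the lowest NaCl lung to 3 digits. TNIP1, its binding partner, ranged over 5605 to 16438 (median 7671) with NaCl and 2089.7 to 7129.6 (median 4831) with MSC (log2 change -0.89, SE 0.29, adjusted p = 0.181). NFKBIA, which holds the factor in the cytoplasm, had a log2 change of -1.07 (SE 0.43), and NFKBIZ one of -1.21 (SE 0.46). Without the 3 libraries of lowest weight limma called TNFAIP3 and NFKB1 lower. IKBKB, BCL3, TRAF1, ZC3H12A and CYLD were listed at 0.

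Upstream of it, receptors showed a weaker mean difference, and the median of the sensors changed sign with the libraries left out. Of 20 cytokine and chemokine receptors, 17 had a lower mean with MSC, 1 of them at an unadjusted p under 0.05, and the median was -0.32 [-0.38 to -0.22, -0.17]. IL4R, the receptor chain for interleukins 4 and 13, ranged over 4960.2 to 10737 (median 7159.9) with NaCl and 1504 to 6506 (median 5350.3) with MSC (log2 change -0.62, SE 0.29, adjusted p = 0.286), and MSC replicate 6 stood apart at the lower end (log2 change -0.36 without it). Of 15 genes for pattern recognition, 9 had a higher mean (51.1% of all genes tested did) and none had an unadjusted p under 0.05. Their median was 0.16 [-0.050 to 0.33, 0.44]. TLR2, which senses bacterial lipoproteins, ranged over 167 to 869 (median 299) with NaCl and 256 to 1561 (median 839) with MSC (log2 change 0.97, SE 0.48, adjusted p = 0.304). MARCO, a scavenger receptor of alveolar macrophages, ranged over 48.9 to 935 (median 149.8) with NaCl and 99.8 to 966 (median 794) with MSC (log2 change 1.36, SE 0.70, adjusted p = 0.327). In both genes the 2 MSC and 3 NaCl lungs with the title ending held low values, and without the 3 libraries of lowest weight limma called both higher (adjusted p = 0.0304 and 0.0309). That fit leaves out those 2 MSC lungs but keeps the 3 NaCl lungs, and it also called TRAF6 lower.

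Lipid mediator and clearance genes had 13 of 16 lower means (median -0.40 [-0.64 to -0.30, -0.48]), with 3 lower and 1 higher at an unadjusted p under 0.05. PTGS2, the inducible enzyme of prostaglandin synthesis, ranged over 4781 to 24376 (median 19132) with NaCl and 459 to 11167 (median 5426) with MSC (log2 change -2.02, SE 0.63, adjusted p = 0.173; DESeq2 adjusted p = 0.0491). LGALS3, the lectin galectin 3, ranged over 13792 to 42882 (median 20686) with NaCl and 6274 to 15904 (median 11024) with MSC (log2 change -1.19, SE 0.30, adjusted p = 0.159; DESeq2 adjusted p = 0.00753), and 6 of 7 MSC lungs were below the lowest NaCl lung. ANXA1, an annexin known for ending neutrophil influx, had a log2 change of -0.91 (SE 0.31). MERTK, the macrophage receptor for dead cells, was the higher one: it ranged over 653 to 2073 (median 889) with NaCl and 725 to 2821 (median 1596) with MSC (log2 change 0.67, SE 0.30, adjusted p = 0.264). Among growth factors of repair 8 of 17 had a higher mean, and the median was -0.011 [-0.24 to 0.26, -0.13]. HBEGF, a ligand of the epidermal growth factor receptor, ranged over 716 to 5516 (median 4187) with NaCl and 197 to 3229 (median 871) with MSC (log2 change -2.06, SE 0.63, adjusted p = 0.171). EREG, another of its ligands, had a log2 change of -1.85 (SE 0.76) and BMP2 one of -1.05 (SE 0.48), whereas BMP4 ranged over 645 to 1009.7 (median 856) with NaCl and 904 to 1235 (median 1081) with MSC (log2 change 0.37, SE 0.12, adjusted p = 0.183).

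Stress genes were also lower on average, though in RPM the list medians were only -0.061 (antioxidant) and -0.088 (heat shock). In the antioxidant list 12 of 15 genes had a lower mean, 5 lower and 1 higher at an unadjusted p under 0.05 (median -0.36 [-0.37 to -0.17, -0.37]). HMOX1, which degrades haem, ranged over 8612 to 48323 (median 16698) with NaCl and 1760.1 to 14746 (median 5733) with MSC (log2 change -1.69, SE 0.48, adjusted p = 0.159; DESeq2 adjusted p = 0.0268). GCLC, the rate-limiting enzyme of glutathione synthesis, ranged over 158 to 611 (median 272) with NaCl and 45.2 to 484 (median 112) with MSC (log2 change -1.33, SE 0.45, adjusted p = 0.191). In both genes MSC replicate 7 stood within the NaCl range and 5 or more of the other MSC lungs below it. CAT, the peroxisomal catalase, was the higher gene, at 2376 ± 898 with NaCl against 3856 ± 1181 with MSC (SD, n = 7 each; log2 change 0.73, SE 0.25). Of 10 heat shock and unfolded protein genes, 8 had a lower mean (median -0.39 [-0.51 to -0.24, -0.24]). BAG3, a co-chaperone, ranged over 1211 to 8856 (median 4240.0) with NaCl and 1149.6 to 2021 (median 1556) with MSC (log2 change -1.36, SE 0.34, adjusted p = 0.159; DESeq2 adjusted p = 0.00309), and NaCl replicate 1 was the one NaCl lung among the MSC values. HSPA8, the constitutive heat shock protein, ranged over 273 to 1189 (median 739.7) with NaCl and 138 to 586 (median 239) with MSC (log2 change -1.31, SE 0.36, adjusted p = 0.159; DESeq2 adjusted p = 0.0291). Without NaCl replicate 1, limma called 3 genes: SPR, BAG3 and EDIL3, an integrin ligand of the matrix (log2 change -2.57). SPR, BAG3 and EDIL3 then each had an adjusted p of 0.0375.

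Coagulation genes had 8 of 9 lower means (median -0.61 [-0.73 to -0.48, -0.82]), 3 of them at an unadjusted p under 0.05. F3, tissue factor, averaged 18379.7 ± 14862 with NaCl against 6837 ± 6422 with MSC (SD, n = 7 each), PLAU (urokinase) ranged over 698 to 3377 (median 1312) with NaCl and 496 to 1238 (median 715) with MSC (log2 change -0.75, SE 0.33, adjusted p = 0.259), and ANXA2, a receptor for plasminogen and its activator, over 44031 to 79873 (median 54876) with NaCl and 17296 to 57019.5 (median 32399) with MSC (log2 change -0.71, SE 0.28, adjusted p = 0.215). SELP, the P-selectin of activated endothelium and platelets, ranged over 7550.0 to 18375 (median 9302) with NaCl and 429.8 to 8597 (median 4948) with MSC (log2 change -1.49, SE 0.52, adjusted p = 0.198), with 6 of 7 MSC lungs below all NaCl lungs and MSC replicate 6 far below the rest (log2 change -0.98 without it). Endothelial genes as a list had a median of -0.27 [-0.48 to -0.18, -0.58], with 1 of 14 lower (SELP) and 1 higher (TIE1, a receptor kinase) at an unadjusted p under 0.05. TIE1 ranged over 457 to 1062 (median 677) with NaCl and 542 to 1521 (median 1114) with MSC (log2 change 0.51, SE 0.23, adjusted p = 0.26).

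Among genes that were higher on average with MSC, the 10 highest log2 changes by the same rule ran from 1.27 to 2.07, and they were those of ASGR1, GALNT14, SGCA, PIP4P2, RASL12, IGFBP4, NYNRIN, ZMYM3, TCN2 and HNMT. ASGR1, a subunit of a receptor for asialoglycoproteins known from liver, ranged over 8.03 to 97.5 (median 38.2) with NaCl and 54.3 to 613 (median 136) with MSC (log2 change 2.07, SE 0.62, adjusted p = 0.166; DESeq2 adjusted p = 0.0278). RASL12, a Ras-like gene, ranged over 17.4 to 125 (median 81.1) with NaCl and 87.4 to 304 (median 229) with MSC (log2 change 1.56, SE 0.39, adjusted p = 0.159; DESeq2 adjusted p = 0.00826), and 6 of 7 MSC lungs were above every NaCl lung. ZMYM3, a zinc finger protein of chromatin, ranged over 50.6 to 138 (median 61.5) with NaCl and 113 to 369 (median 165) with MSC (log2 change 1.36, SE 0.27, adjusted p = 0.159; DESeq2 adjusted p = 0.00247). IGFBP4, which binds insulin-like growth factors, ranged over 299.6 to 1453 (median 790.4) with NaCl and 693 to 3702 (median 2133) with MSC (log2 change 1.45, SE 0.42, adjusted p = 0.159; DESeq2 adjusted p = 0.0291). In RASL12 and IGFBP4, MSC replicate 7 was the lowest MSC lung and lay within the NaCl range.

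TCN2, the plasma carrier of vitamin B12, ranged over 181 to 746 (median 396) with NaCl and 543 to 1797 (median 1048) with MSC (log2 change 1.29, SE 0.34, adjusted p = 0.159; DESeq2 adjusted p = 0.0202). HNMT, which inactivates histamine, ranged over 92.9 to 442 (median 152) with NaCl and 226 to 1005 (median 323) with MSC (log2 change 1.27, SE 0.40, adjusted p = 0.174; DESeq2 adjusted p = 0.0447). MSC replicates 2 and 4 had about 1000 normalized reads of HNMT, and NaCl replicate 1 had more than 5 of the MSC lungs. GALNT14, which starts mucin-type glycosylation, ranged over 4.65 to 73.1 (median 28.1) with NaCl and 23.8 to 247 (median 106) with MSC, SGCA, a sarcoglycan, over 5.35 to 63.8 (median 25.8) with NaCl and 35.2 to 139.6 (median 61.3) with MSC, and PIP4P2, a phosphatase of phosphoinositides, over 19.6 to 111 (median 34.8) with NaCl and 31.4 to 429.8 (median 168) with MSC. NYNRIN ranged over 62.6 to 423 (median 105) with NaCl and 170.3 to 701 (median 398) with MSC. The log2 changes of GALNT14, SGCA, PIP4P2 and NYNRIN were 1.90, 1.71, 1.64 and 1.45, and their adjusted p-values in limma 0.173, 0.159, 0.187 and 0.159.

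Macrophage, complement and antigen presentation genes were higher on average with MSC. Of 16 macrophage and monocyte genes, 13 had a higher mean, 3 at an unadjusted p under 0.05 (9.58% of all genes tested were), with a median of 0.59 [0.42 to 0.82, 1.06]. Of 9 complement genes, 7 had a higher mean, 3 of them at an unadjusted p under 0.05, with a median of 0.80 [0.55 to 0.97, 1.29]; C1QA, C1QB and C1QC are in both lists. C1QC, a chain of the first complement component made by macrophages, ranged over 361 to 2815 (median 531) with NaCl and 719 to 2939 (median 1086) with MSC (log2 change 1.04, SE 0.45, adjusted p = 0.256). NaCl replicate 1 had more C1QC than 6 of the MSC lungs. Without the 3 libraries of lowest weight limma called 4 complement genes higher (C1QA, C1QB, C1QC and C1S) and 1 lower (CD59). C1S, a protease of the same component, ranged over 1469 to 3368 (median 2024) with NaCl and 1894 to 11851 (median 3231) with MSC (log2 change 0.86, SE 0.34, adjusted p = 0.22). The upper end of C1S was MSC replicate 2 alone.

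In the list for MHC class II, which presents antigen to helper T cells, 7 of 10 genes had a higher mean, 4 of them at an unadjusted p under 0.05, with a median of 0.51 [0.39 to 0.63, 0.74]. CIITA, the transactivator of the class II genes, ranged over 155 to 683 (median 249) with NaCl and 402 to 1658 (median 565) with MSC (log2 change 1.18, SE 0.37, adjusted p = 0.177). RLA-DMB, a chain of the peptide exchanger, ranged over 1059 to 6474 (median 1761) with NaCl and 2044 to 13009 (median 3439) with MSC (log2 change 1.13, SE 0.43, adjusted p = 0.208), and its partner HLA-DMA averaged 1042 ± 771 with NaCl against 1975 ± 1393 with MSC (SD, n = 7 each). MSC replicate 2 was the highest MSC lung for CIITA, RLA-DMB and C1S, and NaCl replicate 1 was the highest NaCl lung for each of them. Class II genes resemble one another, so reads may have been shared between copies. Interferon-induced genes had 10 of 14 higher means, none at an unadjusted p under 0.05, and a median of 0.17 [-0.0050 to 0.41, 0.78]. OAS3, an antiviral sensor, ranged over 258 to 5155 (median 1714) with NaCl and 1246 to 3572 (median 2109) with MSC (log2 change 0.60, SE 0.56, adjusted p = 0.604). T and NK cell genes (median -0.11 [-0.25 to 0.054, -0.063], 9 tested) and B cell genes (median -0.19 [-0.40 to -0.031, -0.19], 10 tested, all with a lower mean) had medians near 0. BLK, a kinase of B cells, ranged over 428 to 598 (median 558) with NaCl and 253 to 494 (median 423) with MSC (log2 change -0.41, SE 0.15, adjusted p = 0.204). MS4A1, the B cell surface protein CD20, had a log2 change of -0.25 (SE 0.38; 0.048 in RPM), CD2 -0.38 (SE 0.31) and IL7R -0.38 (SE 0.31). With 1 library left out the values ranged from 0.20 to 0.92 for OAS3, -0.49 to -0.049 for MS4A1, -0.53 to -0.17 for CD2 and -0.61 to -0.24 for IL7R.

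Mitochondrial genes were split by function. Of 10 genes of fatty acid oxidation 9 had a higher mean, 4 of them at an unadjusted p under 0.05 (median 0.46 [0.38 to 0.51, 0.39]). ACADL, an acyl-CoA dehydrogenase, ranged over 678 to 1494 (median 1018) with NaCl and 1209.6 to 2107 (median 1381) with MSC (log2 change 0.54, SE 0.18, adjusted p = 0.192). CPT2, the inner carnitine transferase, ranged over 137 to 315 (median 200.1) with NaCl and 181 to 434 (median 303) with MSC (log2 change 0.62, SE 0.21, adjusted p = 0.194), and SLC25A20, the carnitine carrier, had a log2 change of 0.60 (SE 0.25). Of 15 nuclear genes of oxidative phosphorylation 14 had a higher mean, 5 higher and 1 lower at an unadjusted p under 0.05 (median 0.25 [0.19 to 0.29, 0.36]). The higher ones included NDUFB6, an accessory subunit of complex I, which ranged over 602 to 1012 (median 664) with NaCl and 757 to 1333 (median 933) with MSC (log2 change 0.43, SE 0.16, adjusted p = 0.203). NDUFB3, NDUFB5 and NDUFV2, also of complex I, and ATP5MC3, of the ATP synthase, were the other higher genes at an unadjusted p under 0.05.

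The citric acid cycle had a median of -0.0048 [-0.031 to 0.068, -0.048] over 9 genes, and the 2 with an unadjusted p under 0.05 were both subunits of succinyl-CoA ligase. SUCLG2 ranged over 1164 to 1499.5 (median 1318) with NaCl and 1402 to 2102 (median 1502) with MSC (log2 change 0.34, SE 0.12, adjusted p = 0.203) and SUCLG1 over 1674 to 2532 (median 1949.8) with NaCl and 2100.3 to 3280.2 (median 2388) with MSC (log2 change 0.35, SE 0.13, adjusted p = 0.216). Mitochondrial ribosome genes had 13 of 19 higher means and a median of 0.061 [0.016 to 0.14, 0.18], with MRPS10 at 0.35 (SE 0.14) and MRPL22 at 0.39 (SE 0.16). In the list of mitochondrial dynamics, mitophagy and biogenesis, 8 of 15 means were higher (median 0.060 [-0.030 to 0.079, 0.068]). MIEF1, a receptor for the fission machinery, ranged over 5581 to 11627 (median 7334) with NaCl and 2893 to 7700.2 (median 4361) with MSC (log2 change -0.77, SE 0.23, adjusted p = 0.159; DESeq2 adjusted p = 0.0457). TWNK, the helicase of mitochondrial DNA, ranged over 281 to 604 (median 447) with NaCl and 212 to 448 (median 314) with MSC (log2 change -0.51, SE 0.20, adjusted p = 0.22). PINK1, a kinase that tags failing mitochondria, ranged over 906 to 2714 (median 1511) with NaCl and 1111 to 3990.2 (median 1749) with MSC (log2 change 0.20, SE 0.31, adjusted p = 0.77; 0.013 without MSC replicate 6), and MFN2, a gene of mitochondrial fusion, was listed at 0. Of 12 glycolysis genes 11 had a lower mean, none at an unadjusted p under 0.05 (median -0.48 [-0.68 to -0.27, -0.022]), among them the hexokinases HK1 (-0.61, SE 0.30) and HK2 (-0.55, SE 0.32, and -0.31 without MSC replicate 6). Of 13 hypoxia genes 10 had a lower mean (median -0.29 [-0.34 to -0.083, -0.060]), with NDRG1 at -0.59 (SE 0.29) and EGLN1 at -0.36 (SE 0.24).

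Cell cycle genes had 16 of 19 higher means (median 0.22 [0.075 to 0.36, 0.19]), with the replication licensing genes MCM2, MCM3 and MCM4 at an unadjusted p under 0.05. MCM2 ranged over 69.6 to 261 (median 97.7) with NaCl and 137 to 267 (median 156) with MSC (log2 change 0.60, SE 0.26, adjusted p = 0.249). CDKN1A, the cell cycle inhibitor p21, was the lower member and ranged over 1177 to 2024 (median 1288) with NaCl and 188 to 1347 (median 721) with MSC (log2 change -1.16, SE 0.35, adjusted p = 0.166), with 6 of 7 MSC lungs below the lowest NaCl lung and MSC replicate 1 within the NaCl range.

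Among markers of structural cells, most tested genes had an unadjusted p above 0.05. Alveolar type II genes (4 tested) had a median of 0.25 [-0.12 to 0.67, -0.18] and type I genes (10 tested) one of -0.46 [-0.73 to -0.16, -0.97], none with an unadjusted p under 0.05, and without the 3 libraries of lowest weight limma called the type I genes RTKN2 and EMP2 lower. AGER, of type I cells, ranged over 14534 to 67317 (median 32152) with NaCl and 5974 to 38337 (median 20395) with MSC (log2 change -0.81, SE 0.41, adjusted p = 0.316), SEMA3E stood at -0.52 (SE 0.27), HHIP at 0.45 (SE 0.59) and ETV5, a type II cell factor, at 0.20 (SE 0.25). Smooth muscle and pericyte genes had 8 of 10 higher means (median 0.34 [0.19 to 0.59, -0.019]). PDGFRB, the receptor that marks pericytes, ranged over 477 to 1772 (median 1145) with NaCl and 1327 to 5091 (median 1879) with MSC (log2 change 1.04, SE 0.30, adjusted p = 0.159; DESeq2 adjusted p = 0.0351), and MSC replicate 6 held its highest value. With 1 library left out the log2 change of AGER ranged from -1.01 to -0.53, that of HHIP from 0.21 to 0.99 and that of ETV5 from -0.0072 to 0.31. RGS5, another pericyte gene, had a log2 change of 0.41 (SE 0.28). Fibroblast and matrix genes had a median of 0.12 [-0.13 to 0.23, -0.20] over 13 genes, with TIMP1, an inhibitor of metalloproteinases, over 85383 to 234265 (median 159628) with NaCl and 17931 to 219605 (median 97811) with MSC (log2 change -1.02, SE 0.48, adjusted p = 0.28; -0.67 without MSC replicate 6) and LUM, the matrix proteoglycan lumican, at 0.94 (SE 0.48). In the barrier and fluid transport list (median -0.24 [-0.40 to -0.028, -0.10], 15 tested), SLC12A2, the sodium, potassium and chloride cotransporter, ranged over 636 to 1882 (median 1301) with NaCl and 1292 to 2677 (median 1768) with MSC (log2 change 0.61, SE 0.24, adjusted p = 0.217).

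Markers of blood varied widely between lungs. HBB2, a haemoglobin chain, took 0.393 to 7.14% of the reads of a NaCl library and 0.281 to 1.76% of an MSC library. HBB2 ranged over 36908 to 983081 (median 212281) with NaCl and 27547 to 176034 (median 85910.5) with MSC (log2 change -1.24, SE 0.72, adjusted p = 0.383), and ALAS2, of red cell haem synthesis, over 568 to 9715 (median 2403) with NaCl and 459 to 2669.9 (median 1532) with MSC (log2 change -1.02, SE 0.64, adjusted p = 0.423). The 4 NaCl lungs without a title ending held the 4 highest values of HBB2. The 6 red cell genes tested had a median of -0.29 [-0.45 to -0.13, -0.19] and summed to 45333 to 999945 normalized reads with NaCl and 31429 to 186324 with MSC, with HBZ, AHSP and KLF1 at 0. The part of blood in the results above was not tested. Of 16 striated muscle genes listed only 3 could be tested, and MYL4, a myosin light chain of atrium and fetal muscle, ranged over 11.04 to 51.2 (median 17.7) with NaCl and 5.01 to 11.7 (median 6.65) with MSC (log2 change -1.48, SE 0.34, adjusted p = 0.159; DESeq2 adjusted p = 0.00753). TNNT2, cardiac troponin T, had a log2 change of 0.83 (SE 0.90; 0.13 to 1.22 with 1 library left out).

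**Figure D4:**
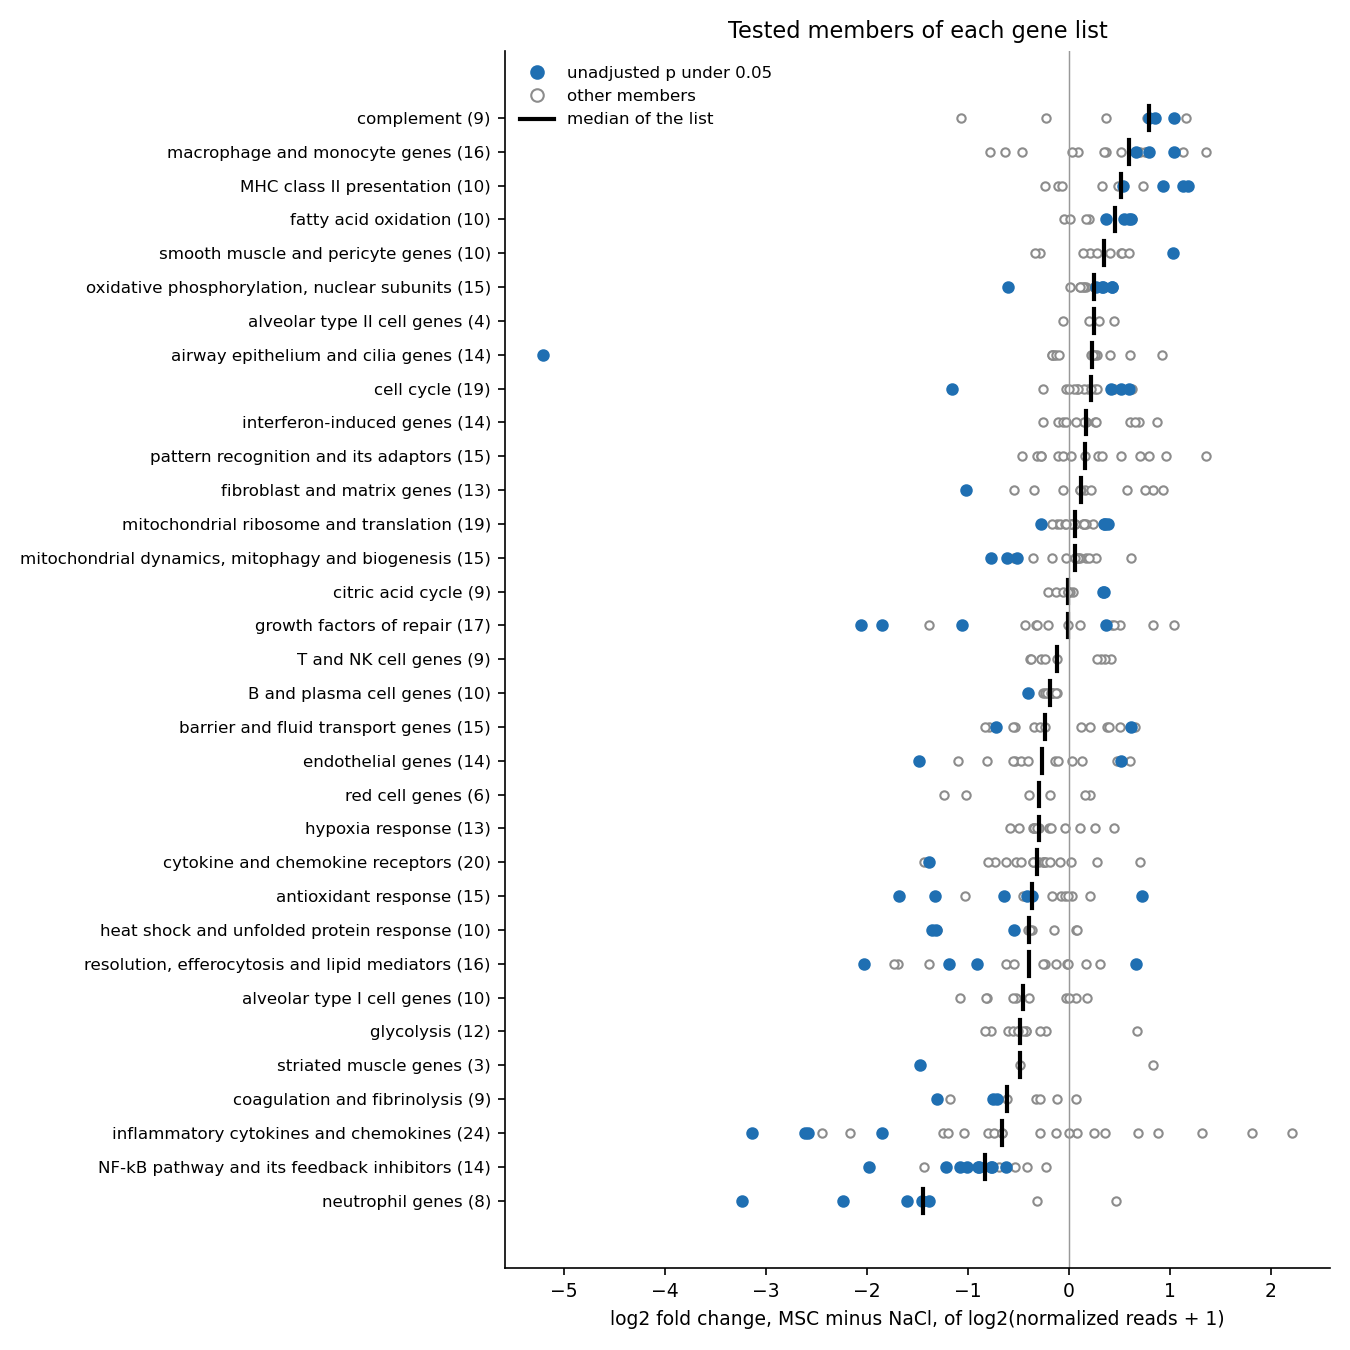
Log2 fold changes (x axis, MSC minus NaCl, of log2 of normalized reads + 1) of the tested members of 33 gene lists, 1 row per list with the number tested in parentheses, filled blue points for an unadjusted limma p under 0.05, open points for other members and a black bar at the list's median. The neutrophil and NF-kB rows have the lowest medians, -1.44 and -0.83, the complement row the highest, 0.80, and the single point at the far left is CFAP61.

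CFAP61, a protein of the radial spokes of cilia, had the lowest log2 change of all named genes and an unusual distribution. Its values in NaCl replicates 1 to 7 were 2137, 6.41, 3142, 4265, 1297, 1199.8 and 9.31, and the 7 MSC lungs ranged from 2.85 to 28.6 (log2 change -5.21, SE 1.37, adjusted p = 0.159; DESeq2 adjusted p = 5.92e-12). So NaCl replicates 2 and 7 were at the level of the MSC lungs and the other 5 were about 2 orders of magnitude above. Across all 35 libraries the recovered reads were either at most 41 or at least 1409, and a line at 1000 reads, set after the values were seen, separates them. The high level was held by 6 of 7 healthy, 5 of 7 NaCl, 0 of 7 MSC, 2 of 7 ceftaroline and 2 of 7 ceftaroline plus MSC libraries. None of the other 13 tested genes of airway epithelium and cilia had an unadjusted p under 0.05, and CFAP44, another axonemal gene, had a log2 change of 0.61 (SE 0.42; 0.38 to 0.82 with 1 library left out).

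**Figure D5:**
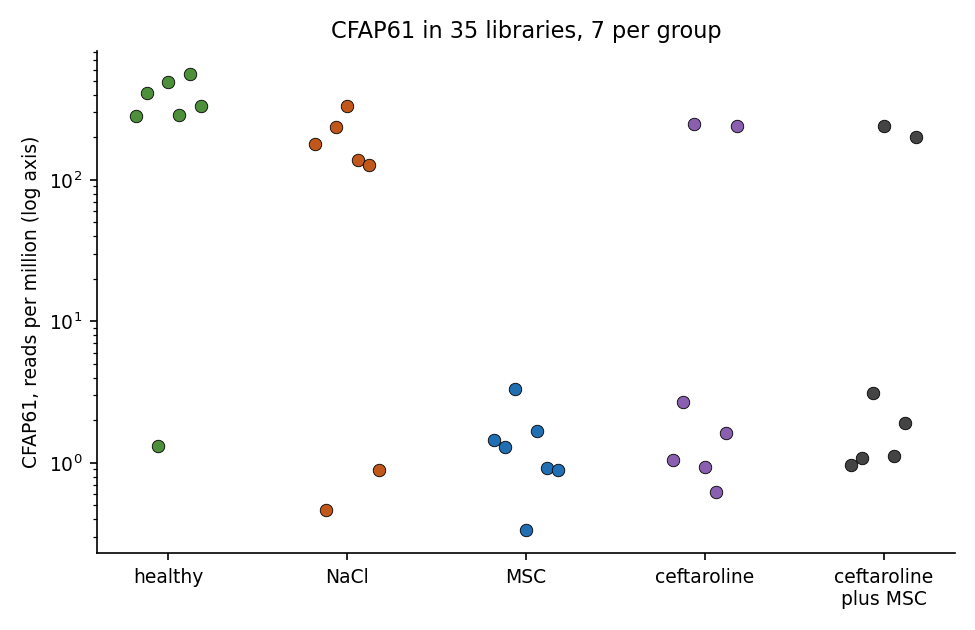
CFAP61 in RPM, reads scaled to an equal total per library (y axis, log scale) in the 35 libraries, 1 point per library and 1 column per group of 7. Points lie in an upper and a lower band with none between, and all 7 MSC libraries are in the lower band.

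The title ending divided the groups unequally, 3 of 7 NaCl and 2 of 7 MSC libraries, so the comparison was repeated within each class of title. Among the 4 NaCl and 5 MSC lungs without an ending, limma called 7 genes, of which RPL19 (log2 change -1.18), PTGES3L (2.46) and PHF7 (1.18) have a symbol. These were named after their values were seen. Among the 3 NaCl and 2 MSC lungs with the ending it called 0, and 485 genes had an unadjusted p under 0.05. With the ending as a covariate limma called 0 genes, the lowest adjusted p was 0.0619 and 2267 genes had an unadjusted p under 0.05. The test of whether the MSC difference itself depended on the ending called 0.0% of genes (lowest adjusted p 0.942 in limma, and 462 at an unadjusted p under 0.05; 0 in edgeR).

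Among NaCl lungs the ending went with large differences of its own. The median log2 difference of the 3 lungs with PG from the 4 others was -2.49 in cytokine, -1.90 in interferon-induced, -1.58 in glycolysis and -2.56 in red cell genes, and 2.04 in smooth muscle genes. The median log2 change between MSC and NaCl in neutrophil genes was -1.59 without the ending and -1.72 with it. It also kept its sign in NF-kB (-0.77 and -1.31), fatty acid oxidation (0.37 and 0.37) and MHC class II genes (0.36 and 0.58). For CAMP the log2 change was -2.92 without the ending and -3.85 with it, for CXCL8 -2.56 and -3.68, for SPR 1.07 and 1.31, and for ZMYM3 1.18 and 1.74. In 12 of 33 lists the medians of the classes differed in sign. Without and with the ending, they were 0.81 and -0.22 in smooth muscle, -1.21 and 0.64 in red cell, 0.59 and -1.27 in striated muscle, 0.52 and -0.57 in airway, -0.40 and 0.26 in endothelial and -0.43 and 0.14 in type I genes. The other lists were interferon-induced (-0.21 and 0.13), growth factor (0.35 and -0.050), barrier (0.22 and -0.057), pattern recognition (-0.053 and 0.028), citric acid cycle (0.046 and -0.11) and mitochondrial ribosome genes (0.073 and -0.055). For HBB2 the values were -2.50 and 0.36, and for PINK1 -0.27 and 0.94. With 2 MSC lungs in the second class, these values describe those lungs.

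The series gives a second setting for MSC, in which the cells were added to ceftaroline, and it shares no library with the first. The MSC difference with ceftaroline (7 against 7 libraries) was set beside the difference without it in one model over 28 libraries of log2 reads relative to library size. None of the libraries with ceftaroline had a title ending, against 3 of 7 NaCl and 2 of 7 MSC libraries. The model held no term for the ending, so differences between the 2 settings cannot be told apart from it. A test of whether the 2 MSC effects differ called 1 gene, or 0.0106% of 9446, by limma (521 at an unadjusted p under 0.05), and edgeR called 2. The gene was SEC62, of the channel that moves proteins into the endoplasmic reticulum, with a log2 MSC effect of -0.33 without and 0.93 with ceftaroline (adjusted p = 0.0236 in limma). No gene named above passed this test. Median MSC effects in this model were -1.45 without and -1.68 with it for neutrophil genes, -0.84 without and -0.86 with it for NF-kB genes and -0.67 without and -1.25 with it for cytokines. For IL6 the effect was -3.16 without and -2.72 with it (SE 1.57), for CXCL8 -2.59 without and -2.73 with it (SE 1.01) and for CAMP -3.25 without and -2.19 with it (SE 1.18), where the SE is that of the effect with ceftaroline.

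Of 14 lists with a positive median effect without ceftaroline, 5 had a larger one with it, 4 a smaller positive one and 5 a negative one. Macrophage genes had a median effect of 0.58 without and -0.10 with it, complement genes 0.79 without and 0.075 with it and MHC class II genes 0.50 without and 0.18 with it. The 5 that were larger were smooth muscle (0.34 without and 0.90 with it), fibroblast (0.11 without and 0.73 with it), type II (0.24 without and 0.77 with it), airway (0.22 without and 0.40 with it) and cell cycle genes (0.21 without and 0.24 with it). Of 19 lists with a negative median effect, 4 had a positive one with ceftaroline, among them type I (-0.47 without and 0.56 with it) and striated muscle genes (-0.50 without and 0.91 with it). These differences between list medians were not tested and cannot be told apart from the title ending. Among NaCl and MSC libraries without it, the median log2 change was 0.81 in smooth muscle and 0.59 in striated muscle genes. It was 0.092 in fibroblast and -0.43 in type I genes. For CIITA the effect was 1.17 without and 0.28 with it (SE 0.35) and for SPR 1.12 without and 0.63 with it (SE 0.20). For SEPSECS it was 0.78 without and 0.13 with it (SE 0.19) and for GTF3C2 0.69 without and 0.22 with it (SE 0.13). CFAP61 had an effect of -5.24 without and -0.0085 with it (SE 1.64). For these genes the difference between the effects did not pass, and DHX35 had the lowest adjusted p of the named genes, 0.239 in limma. DHX35 had an MSC effect of 0.49 without and -0.094 with it (SE 0.11).

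Levels in healthy lungs, given as median RPM and without a test because the tables were scaled separately, placed the named genes relative to uninfected tissue. On the RPM scale 78.1% of all genes tested had a higher mean log2 level with MSC than with NaCl (median log2 change 0.31). An MSC median above that of NaCl is therefore common on this scale. SPR had 32.6 RPM in healthy, 13.3 in NaCl and 32.3 in MSC lungs. For GTF3C2 the medians were 74.1 RPM in healthy, 25.7 in NaCl and 53.7 in MSC lungs, for SEPSECS 24.9 RPM in healthy, 6.87 in NaCl and 14.6 in MSC lungs and for GLOD4 185 RPM in healthy, 86.6 in NaCl and 155 in MSC lungs. In these 4 genes the MSC median lay between the NaCl and the healthy median. They were chosen because their MSC lungs were all above their NaCl lungs, and how many other genes lie in this order was not counted. CAMP had 5.78 RPM in healthy, 1129 in NaCl and 259.9 in MSC lungs, IL6 0.234 RPM in healthy, 1360.3 in NaCl and 178 in MSC lungs and PTGS2 30.5 RPM in healthy, 1645 in NaCl and 527 in MSC lungs. In CAMP, IL6 and PTGS2 the MSC medians were below those of NaCl and far above those of healthy lungs. For MARCO, CIITA and HNMT the order was different: MARCO had 4.93 RPM in healthy, 11.8 in NaCl and 92.9 in MSC lungs, CIITA had 48.0 RPM in healthy, 21.7 in NaCl and 65.3 in MSC lungs and HNMT had 27.3 RPM in healthy, 13.2 in NaCl and 31.4 in MSC lungs, so that the MSC median exceeded the healthy one. The NaCl lungs are in both of these comparisons.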

How the data were processed

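Lung poly(A) RNA libraries were made with a stranded kit and read over 75 bp from 1 end, with bcl2fastq2 2.18.12 for demultiplexing and Cutadapt 1.15 for trimming (reads over 10 bp kept), per the labels' protocols. TopHat2 2.1.1, featureCounts 1.5.2 and DESeq2 1.24.0 are named in the submitters' processing notes. Genome build, annotation and strand setting of the counting were not given in the sources used here, so overlapping and antisense genes cannot be told apart. The deposited signal is reads of a gene divided by a size factor per library, as its values show, since whole reads could be recovered: 100% of the values in each of the 14 libraries were whole multiples of the value of 1 read within a relative tolerance of 1e-06. The deposited log2, ratio, score and p-value columns of the authors' own comparisons were not used.

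Genes reaching 10 in 7 or more of the 14 libraries were tested two-sided with limma 3.58.1 under R 4.3.3, its trend on mean level switched on, using log2(value + 1) over NaCl and MSC libraries with no covariate, and adjusted over all 9446 genes at 0.05. This scale understates differences of low genes. Alternatives were edgeR 4.0.16, DESeq2 1.42.0 and limma voom on recovered reads, edgeR over all groups (34 libraries, since in healthy replicate 6 the value of 1 read is too close to 1 for scaled values to be told from reads), quality weights, other pseudocounts and filters, the title ending, a replicate block and each library left out. The effect beside ceftaroline came from limma on log2 RPM with TMM library sizes. Tests were checked on simulated data.

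Named genes are a panel (IL6, CXCL8, IL1B, TNF, IL10, CSF3, S100A8, CAMP, PINK1, CIITA), the 10 highest and 10 lowest log2 fold changes with a symbol, an average of 50 or more and an unadjusted p under 0.01, up to 15 genes with such a mean and no overlap, the 10 symbol-bearing genes of lowest p, and 2 genes of lowest p in each of 33 lists. The members and lists were chosen with earlier results of these data known. Other genes named with values are further list members. Replicates are numbered in accession order. No 2 libraries of a group were copies: chi-square per degree of freedom was never under 69.3. Gene symbols are those of the deposited tables. No sequence is printed.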

Additional observations from a re-analysis of the deposited data

Results flagged for a closer look

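Of 214 group checks of named genes, 22 had a library set apart from the rest of its group, its gap to the nearest library exceeding the 95% limit of Dixon's test for 7 values, where chance gives about 1 in 20. These checks are not independent, since genes share libraries. In MSC replicate 6, 5 genes were lowest: IL6 (8.35 normalized reads), CXCL8 (322), HDGF (395), IL4R (1504) and SELP (429.8). MSC replicate 1 was lowest for AGER (5974) and highest for NDRG1 (1045) and EGLN1 (232). MSC replicate 7 was highest for KLHL21 (352), MSC replicate 3 for HSPA8 (586) and MSC replicate 2 for C1S (11851).

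Among NaCl lungs, replicate 1 was highest for NYNRIN (423), C1QC (2815) and RLA-DMB (6474) and lowest for HBEGF (716). Replicate 2 was highest for TXNDC11 (1650) and CDKN1A (2024), replicate 3 for DAXX (1467) and replicate 4 for ANXA2 (79873). The lowest values were those of RASL12 in replicate 4 (17.4), S100A8 in replicate 5 (52880) and SLC25A43 in replicate 6 (70.7).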

How the results depend on the processing

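The number of genes past the adjusted threshold was 0 in limma with pseudocounts of 0.5 and 5, a mean of at least 50, voom with TMM, quality weights, the title ending as a covariate and thresholds of 0.1 and 0.01, and in edgeR. It was 1 with no filter, 335 in DESeq2, 322 in edgeR over all groups, 7 in libraries without a title ending and 653 without the 3 libraries of lowest weight, an alternative chosen after seeing the data. With 1 library left out it ranged from 0 to 3. DESeq2 and edgeR over all groups shared 225 calls (67.2% and 69.9% of each). The cause of these differences was not tested. Genes at an unadjusted p under 0.05 numbered 485 in libraries with the ending PG, 849 with a replicate block and 2575 without those 3 libraries, and 1200 to 2172 with 1 library left out. Genes without overlap numbered 693 in libraries without an ending, 115 in RPM and 571 without those 3 libraries. With 1 library left out, they numbered 27 to 134: 106 without NaCl replicate 1, 134 without MSC replicate 7, 51 without MSC replicate 1, 45 without NaCl replicate 5 or 6 and 40 without MSC replicate 5, where fewer libraries allow more separation by construction. The test of the MSC effect with against without ceftaroline called 2 genes in edgeR.

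The replicate block used the title numbers that both groups share (1, 2 and 7). Same-numbered libraries had correlations of 0.177, 0.000747 and 0.268, and differently numbered ones -0.402 to 0.186. Not every library correlated best with its own number. With so few libraries this cannot decide whether the numbers pair them. Under this replicate block limma called 0 genes, and PINK1 (-0.28), OAS3 (-0.19) and ETV5 (-0.022) changed sign. Signs also changed for TNF with quality weights (0.0482), for PINK1 (-0.27), OAS3 (-0.41) and MS4A1 (0.0238) in libraries without an ending, for HBB2 (0.36) and ALAS2 (0.54) in libraries with PG, and for TNF (0.22), IL10 (0.0746) and ETV5 (-0.0294) without the 3 libraries of lowest weight. With 1 library left out, ETV5 ranged from -0.0072 to 0.31. In all, 13 of 2992 values of the 107 named genes reversed.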

Other observations

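Gene families were picked by symbol after the values were seen and are given with no test. In some families, but not in all, members known to have another role (such as kinases and binding partners) were left out. Some families held small differences mostly in one direction. Others were mixed, such as 75 zinc finger genes named ZNF, with 6 higher and 8 lower at an unadjusted p under 0.05. Of 17 vacuolar protein sorting genes (VPS), most of which build complexes that carry cargo between Golgi, endosome and lysosome, 16 had a higher mean with MSC, and 7 had an unadjusted p under 0.05 (9.58% of all genes tested did). Their median log2 fold change was 0.34, with 0.30 in libraries without a title ending, 0.50 without the 3 libraries of lowest weight and 0.099 for the MSC effect beside ceftaroline. VPS41, which tethers vesicles to the lysosome, averaged 765 normalized reads in NaCl and 1181 in MSC lungs (log2 fold change 0.60, SE 0.18), and VPS50, of a recycling complex, 377 and 518 (0.45, SE 0.13). VPS13C, a lipid transfer protein, averaged 55.6 and 99.7 (0.87, SE 0.25). Of 28 centrosomal genes named CEP, 20 had a higher mean, 8 of them at an unadjusted p under 0.05 and 0 lower ones. Their median was 0.16, against 0.0014 for the MSC effect beside ceftaroline. CEP152, which builds new centrioles, averaged 15.9 and 31.7 (0.95, SE 0.25).

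Several other families had lower means more often, and some were mixed. Scaled as RPM, where the median of all genes is 0.31, the negative medians in this paragraph turn positive. Of 24 translation initiation factor genes (EIF), 18 had a lower mean, 3 at an unadjusted p under 0.05 against 0 higher ones, and the median was -0.16. EIF4A1, the helicase of the cap-binding complex, averaged 7767 with NaCl and 5226 with MSC (-0.65, SE 0.24). RAB GTPases, which direct vesicles, had 23 lower means among 30 entries, RAB2A having 2 (median -0.12), cytosolic ribosomal proteins 16 of 21 (median -0.14) and ZBTB transcription factors 13 of 20, with 5 lower and 0 higher at an unadjusted p under 0.05. Proteasome subunits (23 genes, median -0.019) and solute carriers (157 genes, median 0.015) had medians close to that of all genes (0.012). Among methyltransferase-like genes (METTL), 8 of 15 had a lower mean, yet all 5 with an unadjusted p under 0.05 were higher.

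With no filter on low values, 1 gene passed in limma, the gene ENSOCUG00000029266, which has no symbol in the tables (log2 fold change 3.60, adjusted p = 0.00144). It had 5 to 49 reads in the 7 MSC libraries and 0 or 1 in the 7 NaCl libraries. It also varied within the other groups, from 0 to 31 reads in healthy, 1 to 57 in ceftaroline and 0 to 80 in ceftaroline plus MSC libraries.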
